A study of Mus musculus with 30 samples.

Results

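The genes described here encode the proteins of the cytoplasmic ribosome. They were taken from the array's probe-to-gene table by symbol (Rpl or Rps followed by a number, with Rplp0, Rplp1, Rplp2 and Rpsa), and symbols annotated as pseudogenes were left out. Where a gene had several probe sets that named it alone, the brightest on average across 30 arrays stood for it. The genes were thus chosen by symbol, and the mean log2 signal over all arrays decided only which probe set was read. This gave 60 genes of the 19938 that could be measured. Of these, 33 encode proteins of the large (60S) subunit, 21 encode proteins of the small (40S) subunit, and 6 are paralogs (Rpl3l, Rpl7l1, Rpl10l, Rpl32l, Rpl39l and Rps27l). RefSeq lists 84 coding genes under the same symbol rule, and 24 of them were not analysed here.

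Total RNA came from mouse brain tumors, called glioblastomas in the series title, and from normal mouse brain. Tumors had received a Cre construct with the promoter of GFAP (an astrocyte gene), SYN1 (a neuron gene) or NES (a gene of neural progenitors), and the labels name the brain region. There were 4 arrays of GFAP cortex tumors, 7 of GFAP hippocampus tumors, 3 of GFAP tumors from the subventricular zone (SVZ), 4 of SYN1 cortex tumors, 4 of NES hippocampus tumors, 4 of normal cortex and 4 of normal hippocampus. The labels give neither strain, age nor time after injection, and do not say which floxed alleles or other cassettes the mice or constructs carried, whether any are shared with the normal tissue, or whether arrays of 1 group came from separate animals. The p-values therefore measure the spread between these arrays, which may be technical.

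Each ribosome joins a small subunit, which reads the messenger RNA, to a large subunit, which forms the peptide bond and holds the exit tunnel for the new protein. Ribosomal proteins are built into the subunits in the nucleolus in fixed proportions, together with ribosomal RNA. Their messenger RNAs are abundant in every cell and begin with a run of pyrimidines (the TOP motif), through which mTOR signalling controls their translation, and MYC raises the transcription of many of them. Growing and dividing cells make more ribosomes than resting ones.

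The values are log2 signal, and a difference of 1 is a doubling of signal. Markers moved with the tumors as well. The mean log2 difference of 12 neuron genes from the normal arrays was -3.71 to -0.50 in GFAP cortex tumors and -1.32 to -0.14 in NES hippocampus tumors, with the other tumor arrays between -2.92 and -0.78. The 9 measured cell cycle genes (of 10 listed) lay 0.58 to 3.13 above normal over the 22 tumor arrays, and 10 genes of microglia and macrophages lay 0.47 to 2.12 above. Their part in the results below was not tested, and in bulk tissue fewer cells of a type and less RNA per cell cannot be told apart. GFAP cortex tumor 1 and GFAP hippocampus tumors 5 to 7 stood apart from the rest of their groups over all genes.

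More ribosomal protein transcript was measured in every tumor group than in normal brain, and the number of genes past the threshold differed widely between groups. In GFAP hippocampus tumors 35 of the 60 genes were higher than in normal hippocampus, where 16.1% of all genes were higher. In GFAP SVZ tumors 31 were higher than in the 8 normal arrays (16.2% of all genes). In SYN1 cortex tumors 29 were higher than in normal cortex (18.2% of all genes). In GFAP cortex tumors the count was 17 (9.0% of all genes), and in NES hippocampus tumors it was 11 (5.69% of all genes). Calls were made with limma at a Benjamini-Hochberg adjusted p under 0.05 over all genes. The tumor groups hold 3 to 7 arrays, with the most in GFAP hippocampus tumors, so precision differs and these counts alone do not rank the groups. No ribosomal protein gene was called lower in these 5 comparisons by limma, nor at an unadjusted p under 0.05 (0 genes in each), whereas 25.2%, 21.4%, 20.5%, 18.8% and 2.86% of all genes were called lower in the order above. The 2 cortex comparisons share the normal cortex arrays, the 2 hippocampus comparisons share the normal hippocampus arrays, and the SVZ comparison uses both sets. No normal SVZ was measured, so region and tumor cannot be told apart in the SVZ comparison.

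The size of the shift was modest. The median log2 difference over the 60 genes was 0.82 in GFAP hippocampus tumors, 0.66 in SYN1 cortex tumors, 0.61 in GFAP SVZ tumors, 0.45 in NES hippocampus tumors and 0.35 in GFAP cortex tumors. Over all genes the median ran from -0.10 to -0.0027 in the same comparisons. The difference was above 0 for 56, 53, 57, 56 and 50 of the 60 genes in that order, and for 48 genes in all 5 comparisons. Of all genes 43%, 45.3%, 49.7%, 44% and 36.6% lay above 0 in that order, and the share in all 5 is not reported. Every tumor array lay above every normal array of the comparison for 34 genes in GFAP cortex tumors (13.3% of all genes). The number was 27 in GFAP hippocampus (8.43%), 44 in SYN1 cortex (23.1%), 20 in NES hippocampus (13.6%) and 39 in GFAP SVZ tumors (19.1%). Every tumor array lay below for 2 genes in GFAP cortex tumors (Rps15 and Rpl21), 1 in SYN1 cortex tumors (Rps15a) and 0 in the others. The share of all genes in that direction is not reported.

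Both subunits took part. Among the 21 genes of the small subunit 14 were higher in GFAP hippocampus tumors, 13 in GFAP SVZ tumors, 11 in SYN1 cortex tumors, 9 in GFAP cortex tumors and 7 in NES hippocampus tumors. Among the 33 genes of the large subunit the counts were 19, 16, 17, 7 and 4 in the same order. The median difference was larger for the small subunit than for the large one in each group, for instance 1.07 against 0.82 in GFAP hippocampus tumors and 0.55 against 0.31 in GFAP cortex tumors. The difference between the subunits was not tested.

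**Figure D1:**
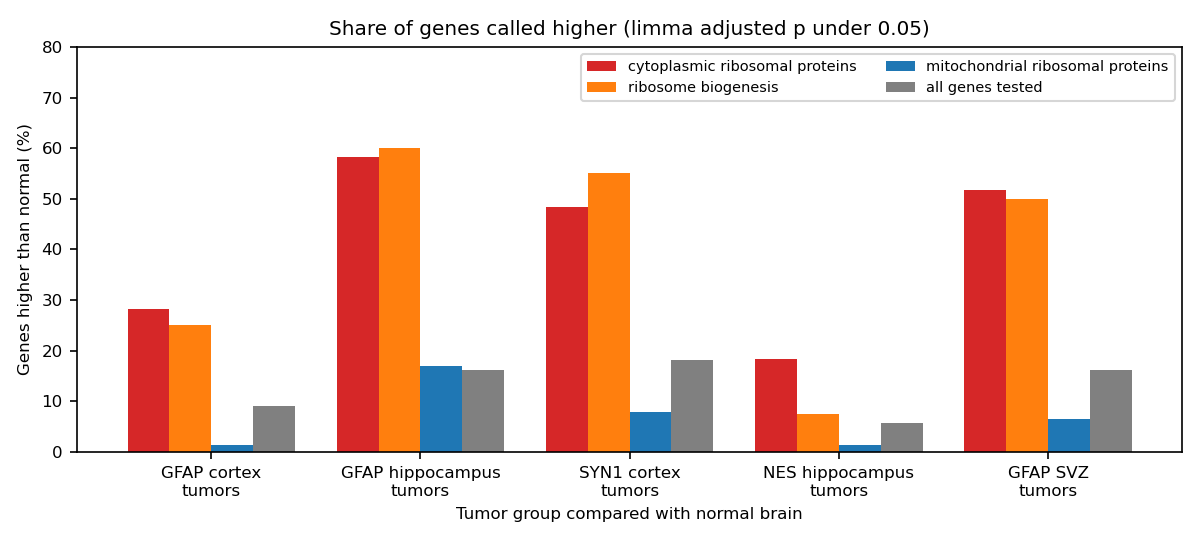
Percent of genes called higher than normal brain (vertical axis) in each of the 5 tumor groups, for the 60 cytoplasmic ribosomal protein genes, 40 ribosome biogenesis genes, 77 mitochondrial ribosomal protein genes and all 19938 genes. The ribosomal protein bars reach 58.3% in GFAP hippocampus tumors and 18.3% in NES hippocampus tumors, and stand above the bar for all genes in each group.

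The counts moved with the arrays and with the scaling. The shares of all genes called that are given above come from the deposited values of all arrays. Those of the refits here and below are not reported, so the refit counts cannot be set against a share of all genes. Without the 4 arrays that stand apart 54 genes were called in GFAP hippocampus tumors, 46 in GFAP SVZ tumors, 41 in SYN1 cortex tumors, 29 in NES hippocampus tumors and 27 in GFAP cortex tumors. Quantile normalization gave 38 in GFAP cortex tumors, and centring each array on its median gave 3 in NES hippocampus tumors. The NES count fell to 1 without NES tumor 1, to 3 without NES tumor 2, to 7, 3 and 5 without normal hippocampus arrays 1, 2 and 4, and rose to 19 without NES tumor 4 and to 18 without GFAP hippocampus tumor 5.

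**Figure D2:**
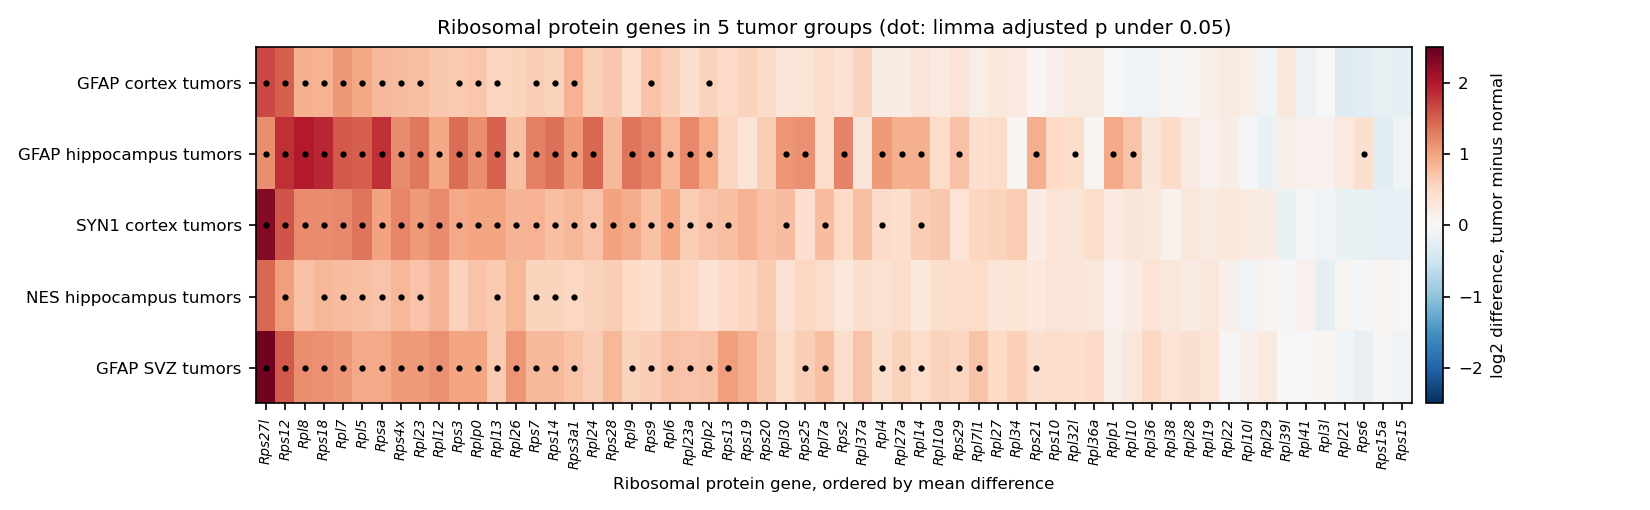
Log2 difference from normal brain (colour) of the 60 ribosomal protein genes (columns, ordered by mean difference) in 5 tumor groups (rows), with a dot where limma's adjusted p was under 0.05. The 11 columns with 5 dots include Rps12, Rps18, Rpl7, Rpl5 and Rpsa; the columns at the right end, among them Rps15a and Rps15, hold none.

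The arrays of a group did not shift equally. For each array the median difference of the 60 genes from the mean of the 8 normal arrays was taken. It was 1.17, 0.96, 0.92 and 0.94 in GFAP hippocampus tumors 1 to 4, and 0.20, 0.53 and 0.58 in tumors 5 to 7. NES hippocampus tumors gave 0.77, 0.42, 0.45 and 0.05, so that NES tumor 4 lay within the range of the normal arrays, -0.22 to 0.15. The other tumor arrays lay between 0.28 and 0.86. These values include any offset of a whole array. With each array centred on its median over all genes, GFAP hippocampus tumors 1 to 4 gave 1.32, 0.82, 0.72 and 0.87. Tumors 5 to 7 then gave 0.46, 0.73 and 0.86, so that tumors 6 and 7 lay within the range of tumors 1 to 4. GFAP cortex tumors 1 to 4 gave 0.74, 0.17, 0.20 and 0.27 when centred. The spread of the 60 genes around that median was narrow in normal brain, with an interquartile range of 0.11 to 0.16, and wide in tumors, reaching 1.40 to 1.72 in GFAP hippocampus tumors 5 to 7.

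**Figure D3:**
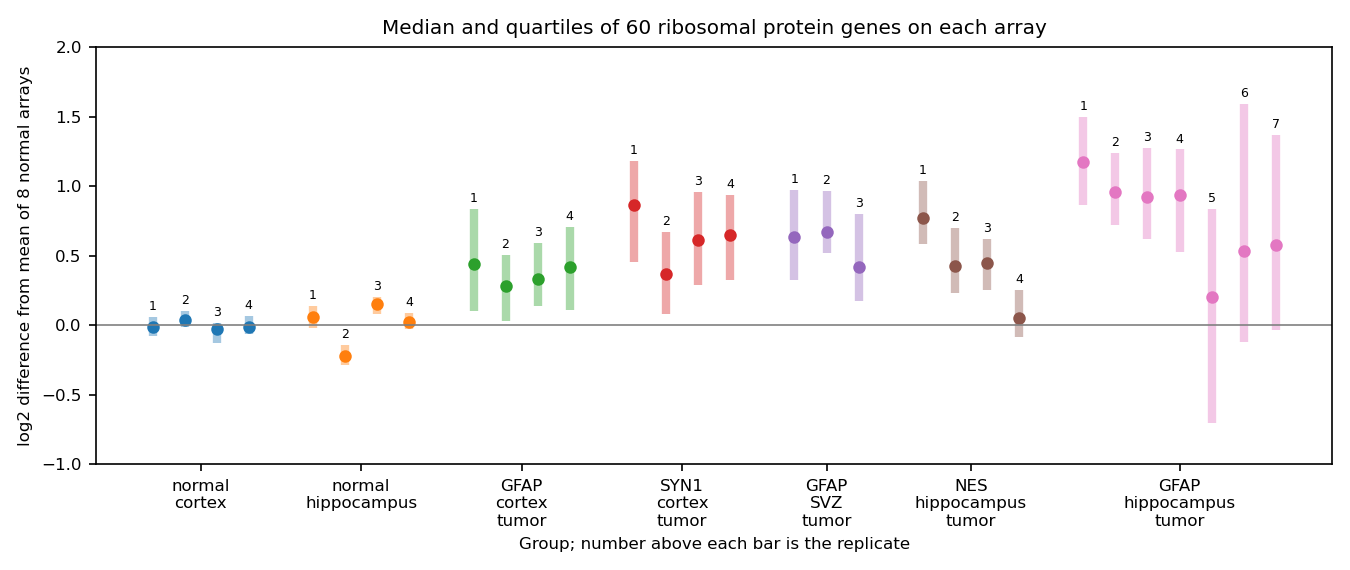
Median (point) and quartiles (bar) over the 60 ribosomal protein genes of the log2 difference from the mean of the 8 normal arrays, for each of the 30 arrays by group, with the replicate number above each bar. The normal arrays lie between -0.22 and 0.15. GFAP hippocampus tumors 1 to 4 lie at 0.92 to 1.17, and the bars of tumors 5 to 7 are the longest. Values are as deposited, without centring of the arrays.

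The 11 genes that were higher in all 5 tumor groups were Rps12, Rps18, Rpsa, Rps7, Rps14, Rps4x and Rps3a1 of the small subunit and Rpl5, Rpl7, Rpl13 and Rpl23 of the large one. The share of all genes higher in all 5 groups is not reported, and the 5 comparisons share normal arrays. The list of 11 depends on the arrays and the fit. Without the 4 arrays that stand apart 25 genes passed in all 5 groups, and with the replicate number as a block 26 did, the 11 among them each time. With each array centred 3 of the 11 were (Rps12, Rpl7 and Rps4x), and with quantile normalization 10 were, all but Rps3a1, among 16 genes in all.

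Rps12, a protein of the small subunit's beak, rose by more than 1 log2 unit in each group. Its signal was 9.48, 9.64, 9.53 and 9.64 in normal cortex and 9.77, 9.43, 9.90 and 9.80 in normal hippocampus. It was 11.69, 10.77, 10.80 and 10.99 in GFAP cortex tumors and 11.21, 11.03, 11.26 and 11.07 in SYN1 cortex tumors. It was 11.33, 11.39 and 10.81 in GFAP SVZ tumors and 11.22, 10.90, 10.75 and 10.24 in NES hippocampus tumors. Each tumor array was thus above each normal array. In GFAP hippocampus tumors it ran from 10.87 through a median of 11.63 to 12.01. Against normal hippocampus the GFAP tumors rose by 1.83 ± 0.19 on the log2 scale (SE, 7 arrays against 4, limma adjusted p = 8.18e-08). SYN1 cortex tumors rose by 1.57 ± 0.21 (4 against 4, limma adjusted p = 3.14e-06), GFAP SVZ tumors by 1.53 ± 0.20 (3 against 8, adjusted p = 3.51e-06). GFAP cortex tumors rose by 1.49 ± 0.21 (4 against 4, limma adjusted p = 3.35e-05), and NES hippocampus tumors by 1.05 ± 0.21 (4 against 4, adjusted p = 0.00218).

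Rps18, which sits at the head of the small subunit where it meets the large one, rose most in GFAP hippocampus tumors. Its signal was 10.96, 11.07, 10.996 and 11.02 in normal cortex and 11.19, 10.78, 11.20 and 10.97 in normal hippocampus. GFAP hippocampus tumors ran from 12.58 through a median of 12.65 to 13.61, with tumors 6 and 7 highest. GFAP cortex tumors stood at 12.16, 11.73, 11.83 and 11.83, SYN1 cortex tumors at 12.57, 11.96, 12.10 and 12.15, and GFAP SVZ tumors at 12.27, 12.26 and 11.97. NES hippocampus tumors spread from 11.28 to 12.41. The tumor and normal arrays did not overlap. The difference was 1.88 ± 0.20 in GFAP hippocampus tumors (limma adjusted p = 1.06e-07), a 3.69-fold change, against 0.83 ± 0.22 in NES hippocampus tumors (adjusted p = 0.0189), 0.88 in GFAP cortex, 1.18 in SYN1 cortex and 1.14 in GFAP SVZ tumors.

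Rpsa, a small-subunit protein that also serves as a laminin receptor, showed the same order. Normal cortex gave 10.24, 10.50, 10.47 and 10.43 and normal hippocampus 10.37, 10.11, 10.42 and 10.24. GFAP hippocampus tumors ran from 11.76 through a median of 12.10 to 12.63, above the 15 other tumor arrays, which lay between 10.61 and 11.59. The difference was 1.83 ± 0.16 (limma adjusted p = 5.35e-09) in GFAP hippocampus tumors and 0.71 ± 0.18 (adjusted p = 0.012) in NES hippocampus tumors, whose arrays lay at 11.40, 11.25, 10.72 and 10.61.

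Rpl8, a protein near the catalytic centre of the large subunit, had the largest difference of the 60 genes in GFAP hippocampus tumors. Its signal ran there from 11.60 through a median of 11.94 to 13.23, against 10.12, 10.01, 10.34 and 10.39 in normal hippocampus. The GFAP tumors thus stood higher by 1.98 ± 0.23 (7 arrays against 4, limma adjusted p = 3.68e-07). In NES hippocampus tumors its signal was 11.47, 11.02, 10.84 and 10.45, and the difference of 0.73 ± 0.26 missed the threshold (limma adjusted p = 0.0787) although the groups did not overlap. It was 0.89 in GFAP cortex, 1.18 in SYN1 cortex and 1.16 in GFAP SVZ tumors (limma adjusted p = 0.0112, 0.000567 and 0.000458).

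Rpl7, of the large subunit, rose by 1.09 ± 0.18 in GFAP cortex tumors (limma adjusted p = 0.000162), where its signal was 10.49 to 11.12 against 9.57 to 9.77 in normal cortex. Rpl5, which brings the 5S ribosomal RNA into the large subunit and binds the p53 regulator MDM2, rose by 1.33 ± 0.19 in SYN1 cortex tumors (limma adjusted p = 5.43e-06), from 10.80 to 10.96 up to 12.05 to 12.48. Rps7, of the small subunit, gave 11.12 to 11.28 in normal cortex and 11.73 to 11.91 in GFAP cortex tumors (difference 0.62 ± 0.16, limma adjusted p = 0.00535). Rps14, whose human counterpart is lost in a form of myelodysplastic syndrome, rose by 1.38 ± 0.15 in GFAP hippocampus tumors (limma adjusted p = 1.47e-07), from 10.53 to 10.80 up to 11.35 to 12.37. Rpl13 and Rpl23 came close to the threshold in a group each. Rpl13 was 10.12 in GFAP cortex tumor 2 and 10.68 to 10.79 in the other 3, against 9.96 to 10.10 in normal cortex (difference 0.54 ± 0.18, limma adjusted p = 0.0276). Rpl23 was 11.44 to 12.28 in NES hippocampus tumors against 10.89 to 11.26 in normal hippocampus (difference 0.71 ± 0.22, limma adjusted p = 0.048).

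**Figure D4:**
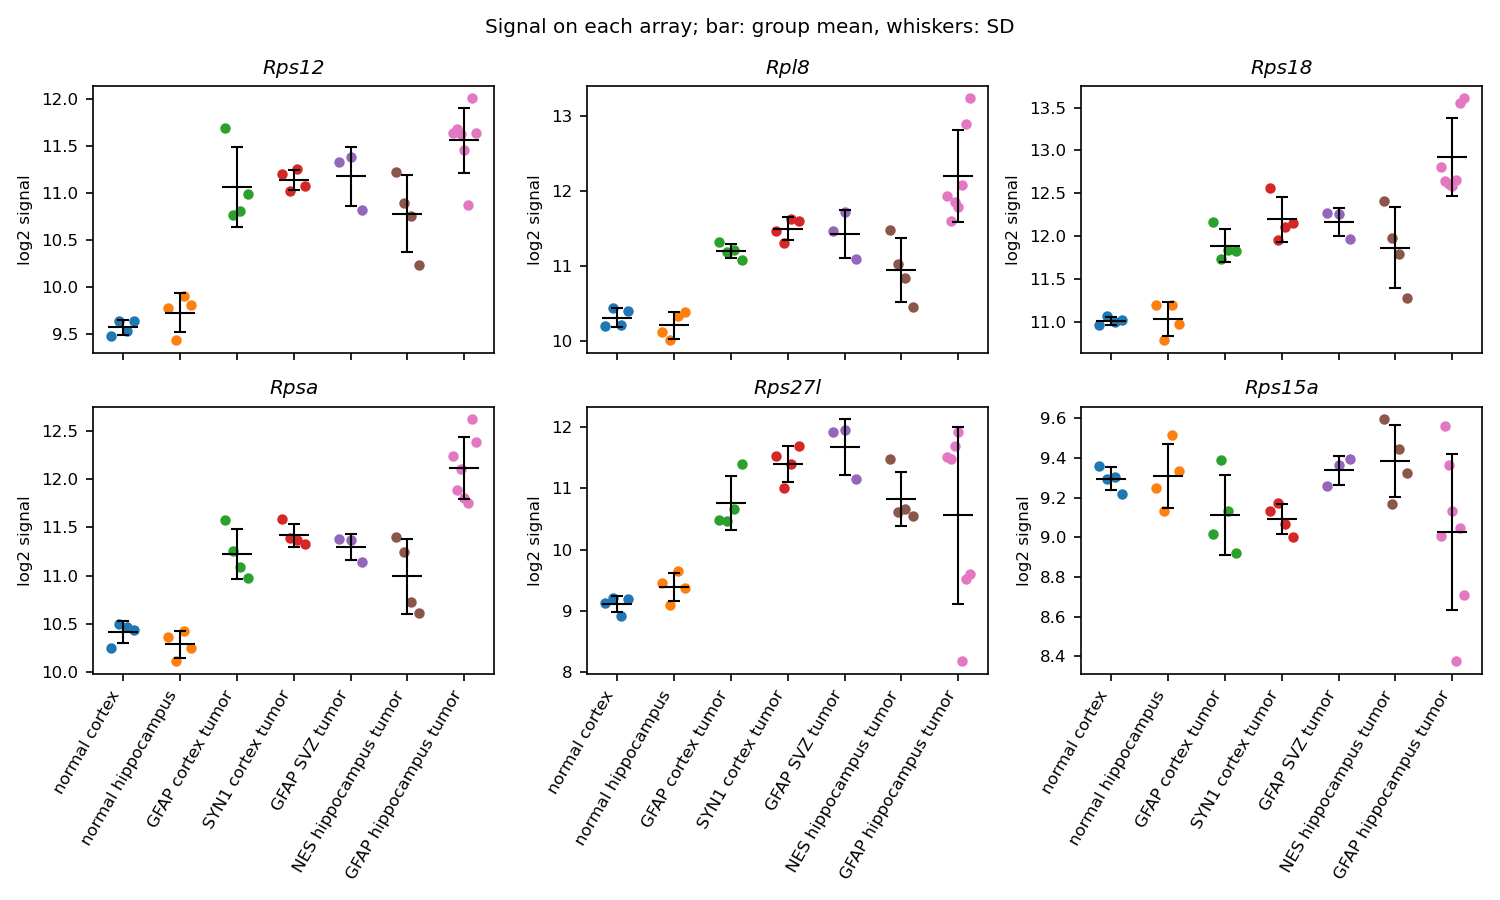
Log2 signal on each of the 30 arrays (points) by group, with the group mean and SD, for Rps12, Rpl8, Rps18, Rpsa, Rps27l and Rps15a. Tumor arrays of Rps12 and Rps18 lie above the normal arrays; Rps27l falls to 8.17 to 9.60 in 3 GFAP hippocampus tumors; Rps15a stays between 8.38 and 9.60 in every group.

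The promoters of some of these genes are shown because the genes moved together and the TOP motif begins at the start of transcription. Each line gives 60 bases before and 30 bases from the start site of RefSeq's annotation (GRCm38.p6), 5' to 3' on the gene's strand, with the longest run of C and T in capitals. Rps18, Rpsa, Rps12, Rpl5 and Rpl23 passed in all 5 tumor groups, Rps15 and Rps15a in none of them, and Rps27l is a paralog described below. The windows are chr17:33955636-33955725 (minus strand) for Rps18, chr9:120127706-120127795 (plus) for Rpsa, chr10:23787180-23787269 (minus) for Rps12, chr5:107900468-107900557 (plus) for Rpl5, chr11:97782410-97782499 (minus) for Rpl23, chr10:80292371-80292460 (plus) for Rps15, chr7:118116118-118116207 (minus) for Rps15a and chr9:66946026-66946115 (plus) for Rps27l.
Rps18: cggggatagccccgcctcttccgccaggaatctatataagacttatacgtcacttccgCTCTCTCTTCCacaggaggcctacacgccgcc
Rpsa: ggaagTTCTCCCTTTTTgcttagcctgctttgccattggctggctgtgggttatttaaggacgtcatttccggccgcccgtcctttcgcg
Rps12: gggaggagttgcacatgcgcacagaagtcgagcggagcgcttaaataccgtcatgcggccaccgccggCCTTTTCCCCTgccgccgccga
Rpl5: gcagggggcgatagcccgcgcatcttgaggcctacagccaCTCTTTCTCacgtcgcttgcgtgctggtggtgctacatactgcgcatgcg
Rpl23: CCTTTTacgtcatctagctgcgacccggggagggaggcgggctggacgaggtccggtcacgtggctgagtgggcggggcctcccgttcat
Rps15: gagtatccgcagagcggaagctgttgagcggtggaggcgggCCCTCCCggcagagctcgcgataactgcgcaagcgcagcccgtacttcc
Rps15a: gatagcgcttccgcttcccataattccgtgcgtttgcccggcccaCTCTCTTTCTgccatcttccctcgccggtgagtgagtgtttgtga
Rps27l: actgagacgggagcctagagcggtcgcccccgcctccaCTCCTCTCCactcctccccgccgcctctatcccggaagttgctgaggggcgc

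The longest run is 12 bases in Rpsa, where it begins 55 bases before the annotated start. It is 11 bases in Rps18 and Rps12, 10 bases in Rps15a and 9 bases in Rpl5 and Rps27l. It is 7 bases in Rps15 and 6 bases in Rpl23, where it touches the edge of the window. Of these runs only that of Rps18 spans the annotated start. Runs are thus found both in genes that passed in 5 groups and in a gene that passed in none. Of the 49 ribosomal protein genes with an entry in RefSeq's promoter table, 49% held a run of at least 8 pyrimidines in this window, against 32.8% of 17492 promoters. A run was counted anywhere in the window, so these are not shares of TOP motifs. CTCTTTC, which overlaps such a run, was in 8.16% against 1.11% (both on the gene's strand). CCGGAAG, a core bound by ETS factors, was in 20.4% against 7.27%, AAGATGG, part of the YY1 motif, in 6.12% against 2.13%, and CACGTG, the E-box bound by MYC, in 4.08% against 3.30%, each on both strands. These are matches of letters and not sites of binding.

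By position on the ribosome, the stalk that recruits elongation factors was represented by Rplp0, Rplp1, Rplp2 and Rpl12. All 4 were higher in GFAP hippocampus tumors, 3 in SYN1 cortex and GFAP SVZ tumors and 2 in GFAP cortex tumors. In NES hippocampus tumors Rplp0 came nearest (0.71 ± 0.23, limma adjusted p = 0.0536). Rplp1 differed from its partners. Its signal ran from 13.16 through a median of 14.05 to 14.11 in GFAP hippocampus tumors and stood at 12.98, 12.30, 12.70 and 12.84 in GFAP cortex tumors, against 12.67 to 12.75 in normal cortex and 12.75 to 12.93 in normal hippocampus. Its difference was 0.95 ± 0.17 in GFAP hippocampus tumors (limma adjusted p = 0.000113) and -0.0044 ± 0.20 in GFAP cortex tumors (adjusted p = 0.99).

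At the exit of the peptide tunnel 4 of 8 listed genes were measured. Rpl23a and Rpl26 were higher in GFAP hippocampus, SYN1 cortex and GFAP SVZ tumors, and Rpl19 and Rpl22 passed in no group. Rpl22 had signals of 8.69 to 9.27 over the normal arrays and 8.93 to 9.63 over the tumor arrays, and its largest difference was 0.27 ± 0.12 in SYN1 cortex tumors (limma adjusted p = 0.0835). Along the path of the messenger RNA, Rps3, which guards the entry, was higher in 4 groups, with 1.39 ± 0.17 in GFAP hippocampus tumors (limma adjusted p = 6.66e-07). In NES hippocampus tumors it missed the threshold (0.57 ± 0.19, limma adjusted p = 0.057). Rps2 was higher in GFAP hippocampus tumors (1.23 ± 0.23, limma adjusted p = 0.000116) and missed the threshold in the other 4 groups. Its chosen probe set lies away from its own locus, and the one at its locus was also called in GFAP cortex (0.58 ± 0.22, limma adjusted p = 0.0491), SYN1 cortex (0.88 ± 0.22, adjusted p = 0.00195) and GFAP SVZ tumors (0.81 ± 0.21, adjusted p = 0.00281). For the chosen probe set the difference of this effect from cortex was 0.88 ± 0.34 (interaction, limma adjusted p = 0.291). Of 15 listed genes mutated in Diamond-Blackfan anemia, a human disease of ribosome supply to red cell precursors, 8 were measured and 2 to 4 were higher in each group. Rps7 and Rpl5 were among them in all 5. Rps19, the gene most often mutated in that disease, passed in none with all arrays, but was called in GFAP hippocampus tumors when tumors 1 to 4 alone were fitted, where it lay 1.18 above normal hippocampus against -0.83 in tumors 5 to 7.

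Of the 60 genes 21 passed in none of the 5 groups. This number was 6 without the 4 arrays that stand apart, 7 with GFAP hippocampus tumors 1 to 4 only, 6 with the replicate block, 9 with only the arrays of the groups compared and 14 with quantile normalization. They include Rps10, Rps15, Rps15a, Rps19, Rps20, Rpl19, Rpl21, Rpl22, Rpl28, Rpl29, Rpl34, Rpl36, Rpl38 and Rpl41. Rps15a had signals of 9.36, 9.29, 9.31 and 9.22 in normal cortex and 9.25, 9.13, 9.51 and 9.34 in normal hippocampus. It gave 9.02, 9.39, 9.13 and 8.92 in GFAP cortex tumors, 9.26, 9.37 and 9.40 in GFAP SVZ tumors and 9.13, 9.17, 9.07 and 9.0 in SYN1 cortex tumors. NES hippocampus tumors gave 9.60, 9.17, 9.44 and 9.32. GFAP hippocampus tumors ran from 8.38 through 9.05 to 9.56. Tumor and normal arrays overlapped apart from SYN1 cortex tumors, which lay below normal cortex, and differences ran from -0.28 ± 0.15 in GFAP hippocampus tumors (limma adjusted p = 0.137) to 0.08 ± 0.17 in NES hippocampus tumors. Rps15, a small-subunit head protein, gave 12.37 to 12.90 over the normal arrays and 11.53 to 13.49 over the tumor arrays. Its GFAP cortex tumors, at 12.48 to 12.65, all lay below normal cortex, at 12.75 to 12.85. Its differences from normal brain were -0.25 to 0.01 (limma adjusted p = 0.585 to 0.984). A missed threshold does not show that these genes were equal in tumor and normal brain. The share of all genes that passed in none of the 5 groups is not reported.

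Rps6, the small-subunit protein that S6 kinase phosphorylates, passed in 1 group. Its signal was 13.13 to 13.39 in normal cortex and 12.88 to 13.21 in GFAP cortex tumors (difference -0.28 ± 0.18, limma adjusted p = 0.269). In GFAP hippocampus tumors it ran from 13.22 to 14.21 against 12.90 to 13.52 in normal hippocampus, and passed there (0.40 ± 0.16, limma adjusted p = 0.0457). With quantile normalization that difference was -0.0737, so its direction flips with the scaling.

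The paralogs behaved unlike each other. Rps27l, a target of p53 that resembles Rps27, had the largest difference of the family in 4 of the 5 groups. Its signal was 9.13, 9.21, 8.92 and 9.20 in normal cortex and 9.45, 9.10, 9.65 and 9.38 in normal hippocampus. It stood at 10.49, 10.47, 10.66 and 11.41 in GFAP cortex tumors, at 11.53, 11.004, 11.39 and 11.69 in SYN1 cortex tumors and at 11.92, 11.96 and 11.15 in GFAP SVZ tumors. These tumor arrays all lay above the normal ones. The differences were 1.64 ± 0.53 (limma adjusted p = 0.0215), 2.29 ± 0.53 (adjusted p = 0.00107) and 2.42 ± 0.51 (adjusted p = 0.000425). NES hippocampus tumors gave 11.47, 10.61, 10.66 and 10.55, also above normal hippocampus, yet the difference of 1.43 ± 0.53 missed the threshold (limma adjusted p = 0.0993). GFAP hippocampus tumors split: tumors 1 to 4 gave 11.51, 11.48, 11.69 and 11.93, and tumors 5 to 7 gave 8.17, 9.53 and 9.60. The spread was pooled over groups, and the SE of Rps27l was 0.47 to 0.53 in each comparison with normal brain. In GFAP hippocampus tumors the difference was 1.17 ± 0.47 (limma adjusted p = 0.0493). Rpl7l1 passed in GFAP SVZ tumors (0.72 ± 0.29, limma adjusted p = 0.0482) and Rpl32l in GFAP hippocampus tumors (0.43 ± 0.15, adjusted p = 0.0249). Rpl3l, known from muscle, and Rpl10l, known from testis, differed by -0.22 to 0.25 and passed in no group. Rpl39l passed in none either, and its difference of 0.28 ± 0.28 in GFAP cortex tumors (limma adjusted p = 0.52) rests on tumor 1, at 7.20. The other 3 tumors, at 4.99, 5.14 and 5.07, lay below the 5.199 to 5.43 of normal cortex.

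GFAP hippocampus tumors 5 to 7, which the labels list apart from tumors 1 to 4, spread more widely around normal hippocampus than those did. In tumors 1 to 4, 59 of the 60 genes lay above the normal hippocampus mean, all but Rps15a (-0.0419), with a median of 1.01. In tumors 5 to 7, 38 lay above it and 22 below, from -1.06 for Rpl34 to 2.52 for Rpl8, with a median of 0.38. The median difference between the sets was -0.24, and over all genes it was -0.18. All 3 later tumors lay below all 4 earlier ones for 25 genes (28.9% of all genes did so), and above them for 6 (5.0% of all genes): Rpl8, Rpl9, Rpl24, Rpl30, Rplp1 and Rps2.

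Single genes show the contrast. Rps19 gave 11.15, 10.98, 10.85 and 10.92 in tumors 1 to 4 and 8.87, 9.29 and 8.72 in tumors 5 to 7, with 9.60 to 9.92 in normal hippocampus between them. Rpl34, a large-subunit protein, gave 10.65, 10.28, 10.43 and 10.88 and then 8.24, 8.79 and 8.75, against 9.44 to 9.82 in normal hippocampus. Rps2 went the other way, with 13.27, 13.08, 12.91 and 12.87 and then 13.57, 14.30 and 14.41. Rps12 and Rpl7 differed by -0.09 and 0.01 between the sets. These are values without a test, since the labels give both sets the same group. With tumors 1 to 4 alone in the fit, 53 of the 60 genes were higher than in normal hippocampus (share of all genes not reported). The other 7 were Rpl10l, Rpl21, Rpl22, Rpl39l, Rpl3l, Rps15a and Rps6.

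**Figure D5:**
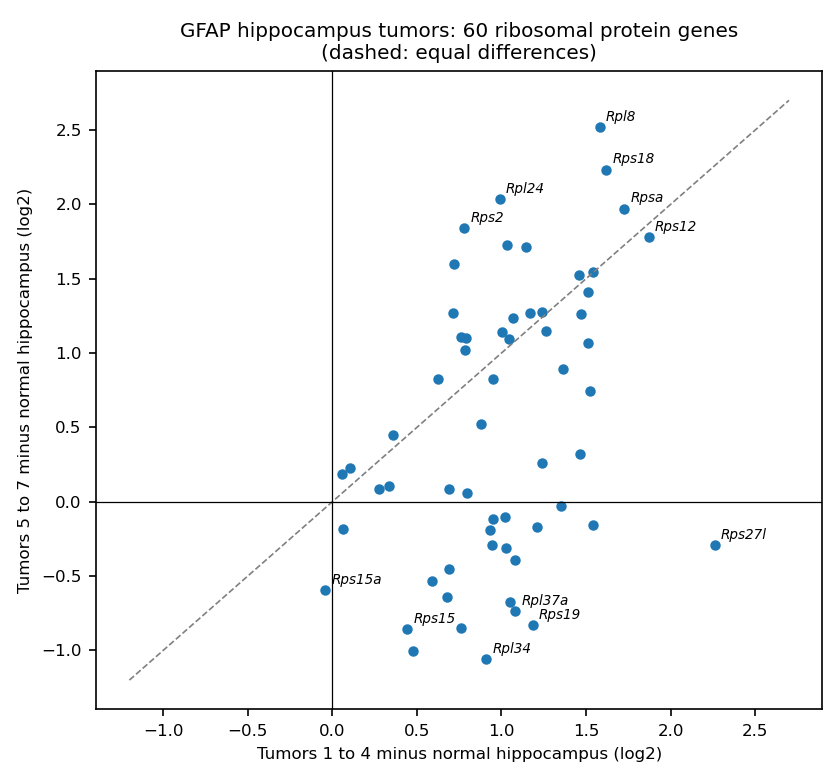
Log2 difference from normal hippocampus of each of the 60 ribosomal protein genes (points) in GFAP hippocampus tumors 1 to 4 (horizontal axis) and 5 to 7 (vertical axis), with the line of equal differences dashed. In tumors 1 to 4 the differences are above 0 for 59 genes, while in tumors 5 to 7 they run from -1.06 to 2.52.

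The comparisons between tumor groups reuse the tumor arrays above. GFAP hippocampus tumors were set against 3 other tumor groups, and not against SYN1 cortex tumors. Against GFAP cortex tumors 20 of the 60 genes were higher there (2.24% of all genes) and none lower by limma (0.441%; 0 at an unadjusted p under 0.05), with a median difference of 0.36. Rplp1 (1.07 ± 0.17, 7 arrays against 4, limma adjusted p = 0.00549), Rps18 (1.03 ± 0.20, adjusted p = 0.0086), Rpl8 (1.00 ± 0.23, adjusted p = 0.0209) and Rpl9 (1.00 ± 0.19, adjusted p = 0.00772) differed most. For 17 genes the groups did not overlap (1.23% of all genes). Tumors with the same number deviated together in this pair of groups, and with the number as a block 44 genes passed. With only GFAP hippocampus tumors 1 to 4 in the fit 43 passed. The other GFAP hippocampus tumors share their number with no other array. The rise with the block thus cannot be credited to matched numbers. The count was 2 with quantile normalization, where the median difference was 0.09, and 0 with only the arrays of both groups in the fit. It was 12, 13 and 13 without GFAP cortex tumor 2, GFAP cortex tumor 3 or GFAP hippocampus tumor 7, and 45 without the 4 arrays that stand apart.

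NES hippocampus tumors had less ribosomal protein transcript than GFAP hippocampus tumors. Of the 60 genes 23 were lower in the NES tumors (2.09% of all genes) and 0 higher by limma (6.12% of all genes), with 1 higher at an unadjusted p under 0.05. The median difference was -0.30, and the largest were -1.25 ± 0.23 for Rpl8 (4 arrays against 7, limma adjusted p = 0.0104), -1.12 ± 0.16 for Rpsa (adjusted p = 0.00143) and -1.05 ± 0.20 for Rps18 (adjusted p = 0.0111). The groups did not overlap for 10 of the genes (0.717% of all genes). The neuron genes moved too, from -1.32 to -0.14 in the NES tumors and from -2.41 to -0.78 in the GFAP tumors, and their part in this was not tested. The count was 1 without NES tumor 3 or NES tumor 4, 11 without NES tumor 2, 0 with only both groups in the fit, and 42 without the 4 arrays that stand apart.

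No ribosomal protein gene passed between SYN1 cortex tumors and GFAP cortex tumors. Limma called 0 of 60, against 0.150% of all genes higher and 0.0251% lower. An unadjusted p under 0.05 was found for 3 of the 60, and for 2933 of all 19938 genes, a larger share. The differences were above 0 for 56 genes with a median of 0.25, and for 3 genes every SYN1 array lay above every GFAP array (6.56% of all genes). Without the 4 arrays that stand apart 1 gene passed, and with quantile normalization the median was -0.0147. GFAP SVZ tumors and GFAP cortex tumors gave 0 calls by limma (0.00502% of all genes higher, 0% lower), and 3 calls without the 4 arrays. At an unadjusted p under 0.05 there were 2 of the 60, against 2101 of all 19938 genes, a larger share. Against GFAP hippocampus tumors, Rplp1 (-0.86 ± 0.19, 3 arrays against 7, limma adjusted p = 0.0439), Rpsa (-0.82 ± 0.17, adjusted p = 0.0384) and Rpl13 (-0.82 ± 0.18, adjusted p = 0.0408) were lower in GFAP SVZ tumors, where 0.166% of all genes were. These 3 calls were not stable: leaving out 1 array gave 0 to 5, with 0 without any single normal cortex array other than array 3, without GFAP SVZ tumor 1 or 2, without normal hippocampus array 3 or 4, or without GFAP hippocampus tumor 6 or 7.

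Normal hippocampus and normal cortex differed in no ribosomal protein gene (limma, 0 of 60), while 0.562% of all genes were higher and 0.727% lower. At an unadjusted p under 0.05 there were 0 of the 60 and 1144 of all 19938 genes. The largest difference among the 60 was 0.28, for Rps27l. The difference of the tumor effect between hippocampus and cortex, tested as an interaction for the GFAP tumors, passed for Rpsa (0.341% of all genes passed in that direction), and for 10 genes without the 4 arrays that stand apart. Its tumor effect was 1.83 in hippocampus and 0.81 in cortex, and the interaction was 1.02 ± 0.24 (limma adjusted p = 0.0317). Over 11 other settings it ran from 0.57 to 1.10 with adjusted p from 0.00992 to 0.486, and passed in 5 of them. With 1 array left out it passed in 21 of 30 fits, and not without GFAP cortex tumor 3 or 4, normal cortex arrays 2 to 4, normal hippocampus arrays 1, 2 or 4, or GFAP hippocampus tumor 7.

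Ribosomal protein genes have many near-identical processed copies in the genome, and probe sets can share signal with them. The 60 genes had 215 probe sets, 22 genes had 1 and Rps12 had 14. By its number among its neighbours, the chosen probe set lay at the gene's own locus for 27 genes and elsewhere for 33, whereas 96.2% of the probe sets of other coding genes lay at their own locus. Among the 38 genes with several probe sets, all probe sets of a gene had a difference of 1 sign in 38 genes in GFAP hippocampus tumors and in 35 to 37 in the other 4 groups. With only own-locus probe sets 54 genes could be tested, and 36, 33, 30, 21 and 10 were higher in GFAP hippocampus, GFAP SVZ, SYN1 cortex, GFAP cortex and NES hippocampus tumors. In NES hippocampus tumors Rpsa (limma adjusted p = 0.0522) and Rps7 (adjusted p = 0.0635) then missed the threshold, Rps3a1 had no such probe set, and the other 8 of the 11 genes passed in all 5 groups.

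Other genes of ribosome production are given here in lists chosen with earlier results of these data known, to be read against the share of all genes called higher (16.1% in GFAP hippocampus, 18.2% in SYN1 cortex, 16.2% in GFAP SVZ, 9.0% in GFAP cortex and 5.69% in NES hippocampus tumors). Of 40 ribosome biogenesis genes, which act on ribosomal RNA and subunits in the nucleolus, 24 were higher in GFAP hippocampus, 22 in SYN1 cortex, 20 in GFAP SVZ, 10 in GFAP cortex and 3 in NES hippocampus tumors (60%, 55%, 50%, 25% and 7.5%). The share in NES hippocampus tumors was near that of all genes. The RNA helicase gene Ddx21 was higher in all 5 (1.14 ± 0.34 to 1.96 ± 0.34), as was nucleolin, Ncl (0.86 ± 0.20 to 1.03 ± 0.20). Nucleophosmin, Npm1, rose by 1.17 ± 0.29 in GFAP hippocampus tumors (limma adjusted p = 0.00192). The median of these genes, 0.69 in GFAP hippocampus and 0.77 in SYN1 cortex tumors, lay near that of the ribosomal protein genes.

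Of 30 measured translation factors 17, 14, 12, 2 and 2 were higher in GFAP hippocampus, SYN1 cortex, GFAP SVZ, GFAP cortex and NES hippocampus tumors (56.7%, 46.7%, 40%, 6.67% and 6.67%). The last 2 shares were below and near those of all genes. Of these factors 3 were lower in GFAP cortex, 2 in GFAP SVZ and 1 in SYN1 cortex tumors. Of all genes 18.8%, 21.4% and 20.5% were lower there. The initiation factor gene Eif2s2 rose by 1.48 ± 0.25 in GFAP hippocampus tumors (limma adjusted p = 4.16e-05), and Eef1a2, the elongation factor of neurons and muscle, was lower by limma in SYN1 cortex tumors (-3.03 ± 0.58, adjusted p = 0.000152). Of 14 other measured genes with TOP messenger RNAs 11 were higher in GFAP hippocampus, 8 in SYN1 cortex, 7 in GFAP SVZ, 1 in GFAP cortex and 0 in NES hippocampus tumors by limma (78.6%, 57.1%, 50%, 7.14% and 0%), with 4 higher in NES hippocampus tumors at an unadjusted p under 0.05. The share in GFAP cortex tumors was below that of all genes. Eef1a1, the ubiquitous counterpart of Eef1a2 and a TOP gene, rose in GFAP hippocampus tumors (1.05 ± 0.27, limma adjusted p = 0.00275) and differed by -0.06 ± 0.30 in GFAP cortex tumors (adjusted p = 0.911).

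Of 22 measured genes of mTOR and MYC signalling 2 were higher in 4 groups (9.09%) and 3 in GFAP SVZ tumors (13.6%), which is near or below the share of all genes except in NES hippocampus tumors (5.69%). In GFAP hippocampus, SYN1 cortex, GFAP SVZ, GFAP cortex and NES hippocampus tumors 8, 9, 9, 6 and 1 were lower. Of all genes 25.2%, 20.5%, 21.4%, 18.8% and 2.86% were lower in that order. Myc was higher in all 5, by 1.74 ± 0.47 in NES hippocampus tumors (limma adjusted p = 0.0201) to 2.73 ± 0.47 in SYN1 cortex tumors (adjusted p = 5.09e-05), and so was Eif4ebp1, a brake on cap-dependent initiation that mTOR releases (1.73 ± 0.43 to 2.56 ± 0.43). The related gene Mycn went the other way. It was lower in 4 groups, by -0.63 ± 0.15 in GFAP hippocampus tumors to -0.88 ± 0.16 in GFAP SVZ tumors. In NES hippocampus tumors it differed by -0.38 ± 0.17 (limma adjusted p = 0.167), and Mycl was lower there (-0.55 ± 0.11, adjusted p = 0.00208). Mtor itself was lower in 4 groups and differed by -0.25 ± 0.20 in NES hippocampus tumors (limma adjusted p = 0.512). Pdcd4, an inhibitor of initiation, fell by 1.54 in GFAP hippocampus tumors (limma adjusted p = 0.00074).

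Mitochondrial ribosomal proteins, which serve a separate ribosome, had fewer calls. Of 77 measured genes 13 were higher and 6 lower in GFAP hippocampus tumors, 6 and 4 in SYN1 cortex tumors, 5 and 3 in GFAP SVZ tumors and 1 and 6 in GFAP cortex tumors, and 1 was higher in NES hippocampus tumors. The shares higher were 16.9%, 7.79%, 6.49%, 1.3% and 1.3% in that order, against 16.1%, 18.2%, 16.2%, 9.0% and 5.69% of all genes. The first was near the share of all genes and the others were below it. Of all genes 25.2%, 20.5%, 21.4%, 18.8% and 2.86% were lower. The median difference of the mitochondrial genes was -0.25 to 0.06 over the 5 groups, against 0.35 to 0.82 for the cytoplasmic family. The difference between both families was not tested.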

How the data were processed

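Total RNA was labelled with the Ambion WT expression kit and measured on 30 Affymetrix Mouse Gene 1.0 ST arrays, per the labels' protocols. The deposited values are log2 signal for 35556 probe sets, and MAS5, RMA and Affymetrix Power Tools appear in the submitters' processing notes without versions or roles. Array medians over all probe sets ran from 7.03 to 7.30, and how arrays were scaled to each other is not given in the sources used here. Over the 19938 genes tested the medians ran from 7.42 to 7.99. The 4 arrays that stand apart had the lowest of these, 7.42 to 7.52. Values were used as deposited, with no filter on low signal. Probe sets naming 1 gene (21789) were matched to RefSeq, with 1 probe set per gene.

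A model of 7 group means on all arrays was fitted with limma 3.58.1 (R 4.3.3), and p-values were adjusted over 19938 genes. Errors are standard errors of that fit; 3 to 7 arrays in a group limit the precision. The script was tested on simulated data. Equal replicate numbers pair samples only in GFAP hippocampus against GFAP cortex tumors, where residuals of pairs correlated at 0.28 to 0.31 (from the data, not the labels). The genes, the lists and their roles were chosen with earlier results of these data known. Genes were named where they had the largest differences past the threshold or belonged to a role or list; examples within a list, and Rps15a, Rps15 and Rps6, were chosen after their values were seen. Alternatives were other scalings, filters, probe sets and sets of arrays.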

Additional observations from a re-analysis of the deposited data

Results flagged for a closer look

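Among 120 groups of values tested, 5 genes had an array far from the rest of its group, and chance gives about 1 in 20 groups. These 120 do not cover every gene in every group, so the count does not describe the whole family. Rpl39l in GFAP cortex tumor 1, at 7.20 against 4.99 to 5.14 in the rest of its group, is not among the 5. Rpl13 was lowest in GFAP cortex tumor 2, at 10.12 against 10.68 for the next array. Rpl23 was lowest in GFAP hippocampus tumor 5, at 11.34 against 12.43. Rps27l was highest in NES hippocampus tumor 1, at 11.47 against 10.66. Rpl34 was lowest in SYN1 cortex tumor 2, at 10.09 against 10.23, and Rplp1 was highest in SYN1 cortex tumor 1, at 13.46 against 12.83.

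The tumor effect on Rpsa differed between hippocampus and cortex in the GFAP tumors by 1.02 (limma interaction, adjusted p = 0.0317), with 1.83 in hippocampus and 0.81 in cortex. It passed in 5 of 11 other settings, and not with own-locus probe sets.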

How the results depend on the processing

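Counts are ribosomal protein genes past the threshold. The share of all genes called under each setting is not reported. With quantile normalization they were 38 in GFAP cortex tumors, 2 for GFAP hippocampus against GFAP cortex tumors, 1 for GFAP SVZ against GFAP hippocampus tumors and 0 for the interaction. Of 170 calls of a gene in a comparison, quantile normalization reversed 3 (Rps6 at -0.0737 in GFAP hippocampus tumors against normal and at -0.1171 against GFAP cortex tumors, Rpl10 at 0.0088 in NES against GFAP hippocampus tumors) and lost 28 more; the cause was not tested. Centring gave 3 in NES hippocampus tumors, 0 for SVZ against hippocampus and 0 for the interaction, and trend with robust eBayes gave 0 for both of the latter. Only the arrays of the groups compared gave 30 in GFAP cortex (29 higher, 1 lower), 20 in NES hippocampus and 50 in SVZ tumors, and 0 for NES against GFAP hippocampus, GFAP hippocampus against cortex and SVZ against hippocampus. The replicate block gave 30 in GFAP cortex, 54 in GFAP hippocampus and 29 in NES hippocampus tumors, 43 for NES against GFAP hippocampus, 44 for GFAP hippocampus against cortex, 1 for SVZ against hippocampus and 12 for the interaction; outside the GFAP pair the samples share only a number. GFAP hippocampus tumors 1 to 4 only gave, in that order, 28, 53, 28, 39, 43, 0 and 6. The other GFAP hippocampus tumors share their number with no other array. The effect of the block thus cannot be told from that of these tumors. Leaving out the 4 arrays that stand apart gave 27, 54, 29, 42 and 45, then 10 for the interaction, 1 for SYN1 against GFAP cortex and 3 for SVZ against GFAP cortex. Own-locus probe sets, a choice made after seeing the data, moved no count by over 1.5 times.

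Leaving out 1 array gave 13 to 18 in GFAP cortex, 32 to 43 in GFAP hippocampus, 23 to 32 in SYN1 cortex, 1 to 19 in NES hippocampus and 23 to 37 in SVZ tumors, 1 to 26 for NES against GFAP hippocampus, 12 to 26 for GFAP hippocampus against cortex, 0 to 5 for SVZ against hippocampus and 0 to 4 for the interaction. The other 3 comparisons gave 0 throughout. Low signals include background, which compresses differences of dim genes such as Rpl10l.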
